A study of Mus musculus with 6 samples.

Results

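Cells sorted as regulatory T cells from the injured brain were compared with cells sorted the same way from the blood of operated mice. The comparison used 4 of the 6 libraries of the study, chosen by their titles: 2 of tMCAO brain and 2 of tMCAO blood. Every gene of the count table was a candidate. In transient middle cerebral artery occlusion (tMCAO), an artery that feeds the forebrain is blocked and then reopened, which leaves an ischaemic lesion. Here the artery was closed for 60 min and the cells were sorted 14 days after it. The mice were young males of the C57BL/6N background, 9 weeks old, and every group carried the transgene Tg(Foxp3-DTR/EGFP)23.2Spar, in which Foxp3 regulatory sequence drives the diphtheria toxin receptor fused to a green fluorescent protein. The labels name no toxin treatment. Blood of sham-operated mice of the same age and transgene, with no occlusion, made the remaining 2 libraries, which served here only to lend their spread to the test and as reference levels. Cells were gated as CD4+CD25+Foxp3+, and each library came from 500 to 1000 cells. No source used here says that the libraries of 1 group are from different animals. The p-values therefore rest on differences between libraries that may be technical. Unless sham is named, brain and blood below mean the tMCAO groups, the 2 libraries of a group are called its pair, and values are given for library 1 and then library 2.

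Regulatory T cells (Tregs) are CD4 lymphocytes that depend on the transcription factor Foxp3 and carry the interleukin 2 receptor chain CD25. After brain ischaemia they enter the tissue late, where they meet microglia, the resident macrophages of the brain, and macrophages derived from blood monocytes. Tregs in tissues are known for the growth factor amphiregulin and for the receptor ST2, whereas circulating T cells keep the transcription factor Klf2. Microglia are recognised by P2ry12, Sall1 and Gpr34, and near damaged myelin they turn on a set of lipid and lysosome genes.

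Genes of the labelled cell type were detected in every library, at lower and less even shares of the counts in the tMCAO groups than in sham blood. The 20 genes of the T cell receptor complex and its proximal signalling took 0.0579% and 0.207% of the brain counts, 0.101% and 0.491% of the blood counts and 0.975% and 0.955% of the sham counts. No gene of that list was at 0 in any library. Foxp3 stood at 0.726 and 19.6 CPM in the brain pair, 0.538 and 5.18 CPM in the blood pair and 50.1 and 60.7 CPM in the sham pair, so that in brain and in blood 1 library was close to 0 (edgeR adjusted p = 0.4398 for brain against blood). Il2ra, the gene of CD25, stood at 22.99 and 92.1 CPM in the brain pair and 20.5 and 118 CPM in the blood pair. Cd3e, which encodes a CD3 chain, stood at 10.7 and 87.1 CPM in the brain pair and 17.2 and 119.7 CPM in the blood pair. In both tissues, library 2 held more T cell RNA than library 1. Markers of microglia, 24 genes, took 2.21% and 2.02% of the brain counts, 0.443% and 0.314% of the blood counts and 0.159% and 0.188% of the sham counts. The 24 markers of monocytes took 2.94% and 1.28% of the brain counts, 3.42% and 1.57% of the blood counts and 0.922% and 0.763% of the sham counts. Dendritic cell markers took 0.369% and 0.6898% of the brain counts, 0.0433% and 0.0367% of the blood counts and 0.0699% and 0.0945% of the sham counts. Genes of red cells took 0.00506% and 0.00847% of the brain counts, 0.112% and 3.86% of the blood counts and 15.9% and 17.6% of the sham counts. The globin gene Hbb-bs was the most abundant gene of blood library 2 and of both sham libraries. In both brain libraries the globin genes Hbb-bt and Hba-a2 were at 0 and Hbb-bs was close to 0. The 95% Wilson interval of each share treats reads as independent and covers their counting error only. For brain library 1, the T cell receptor share of 0.0579% had bounds of 0.0568% and 0.0589%. Total counts were 16663506 to 24460894 per library in the tMCAO groups and 14348179 and 15216373 in sham blood.

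**Figure D1:**
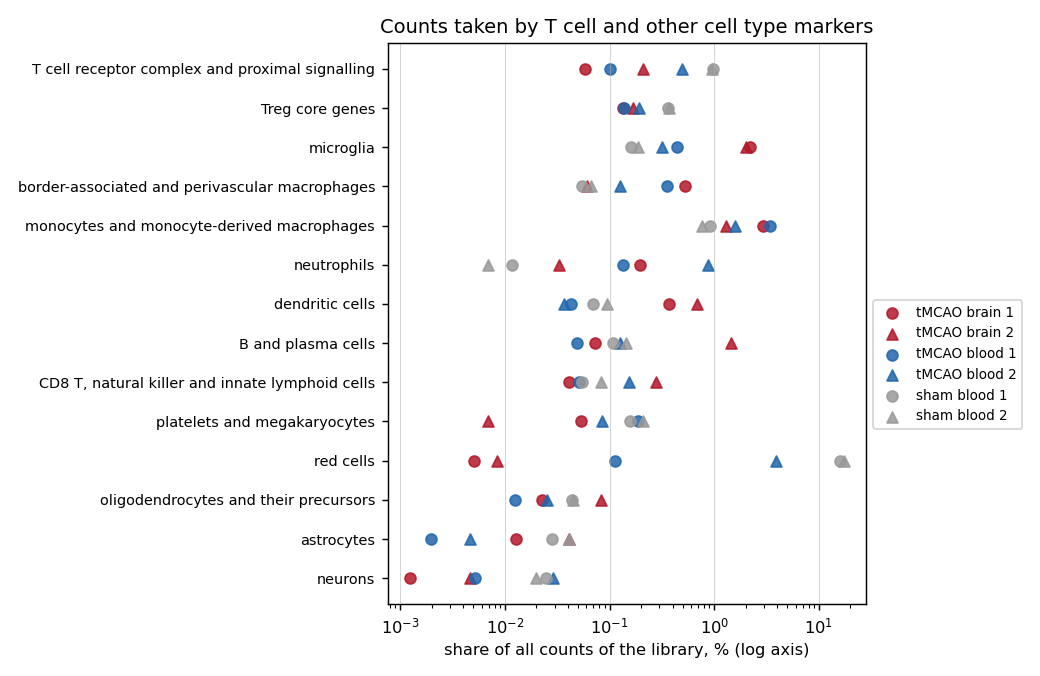
Share of all counts of each library (percent, log axis) taken by T cell genes and by markers of other cell types, with 1 point per library, circles for library 1 and triangles for library 2 of each group. Microglia markers lie at 2.02% and 2.21% in both brain libraries and at 0.443% or less in the other 4, while T cell receptor complex genes lie at 0.491% or less in all 4 tMCAO libraries and at 0.955% and 0.975% in sham blood.

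Of 16657 genes tested, 816 were called (4.9%), 588 of them higher in brain (3.53%) and 228 lower (1.37%), at an edgeR adjusted p under 0.05. These shares are the background for the member counts given below, and the median log2 difference over all genes tested was 0.06. The lists share members, so their counts are not independent. In another list stood 18 of 28 lipid-responsive, 14 of 24 microglia, 13 of 20 dendritic cell and 10 of 30 lysosomal genes. The called differences were large: the median was 7.45-fold among higher genes and 6.16-fold among lower genes, and the smallest called differences were 2.30-fold in both directions. In 249 higher and 87 lower genes the difference passed 10-fold. The brain and blood libraries did not overlap in any called gene, but lack of overlap alone was common, with brain above blood in 31.4% and below it in 25.9% of all genes tested. The number of calls depended strongly on the spread that the sham pair lent to the test. Leaving out sham library 1 or 2 left 25 higher and 6 lower genes in either case, and a fit of only the 4 tMCAO libraries left 22 higher and 4 lower. Without brain library 1, brain library 2, blood library 1 or blood library 2, the counts were 253, 155, 173 and 68 higher and 60, 34, 76 and 42 lower genes. Without both tMCAO libraries numbered 1, brain and blood kept 1 library each and the sham pair alone set the spread, and 2155 and 1454 genes were called. That fit therefore says nothing of the spread within brain or blood. In the sham pair 1.42% of genes differed more than 8-fold, against 4.34% in the brain pair and 3.27% in the blood pair. No called gene changed direction in any of the 15 alternatives. As brain and blood did not overlap in these genes, leaving out libraries could hardly turn a direction, so this says little of their stability. Scaling to T cell receptor complex genes moved the median of all genes to 0.75 and gave 603 higher and 77 lower genes, so that 88.7% of calls were higher against 72.1% before. In bulk RNA, fewer cells of a type and less RNA per cell cannot be told apart, and this holds for every gene named here.

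**Figure D2:**
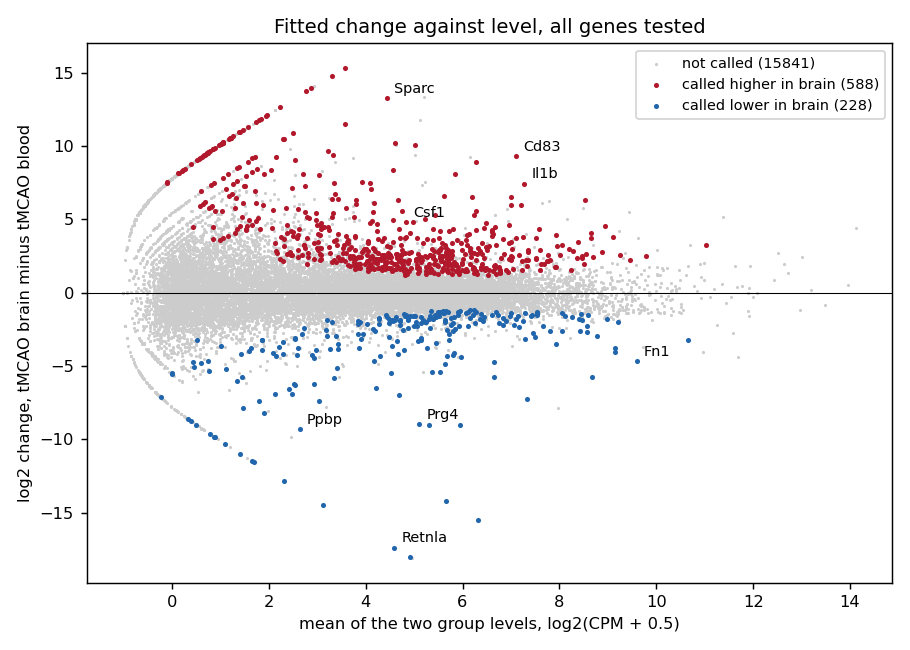
Fitted log2 difference of brain over blood (vertical axis) against the mean level of both groups on the log2(CPM + 0.5) scale (horizontal axis) for 16657 genes tested, with 588 genes called higher in red, 228 called lower in blue and the rest in grey. Called genes lie at least 2.30-fold from no difference at every level, and those along the outer curves have counts at or near 0 in 1 group.

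**Figure D3:**
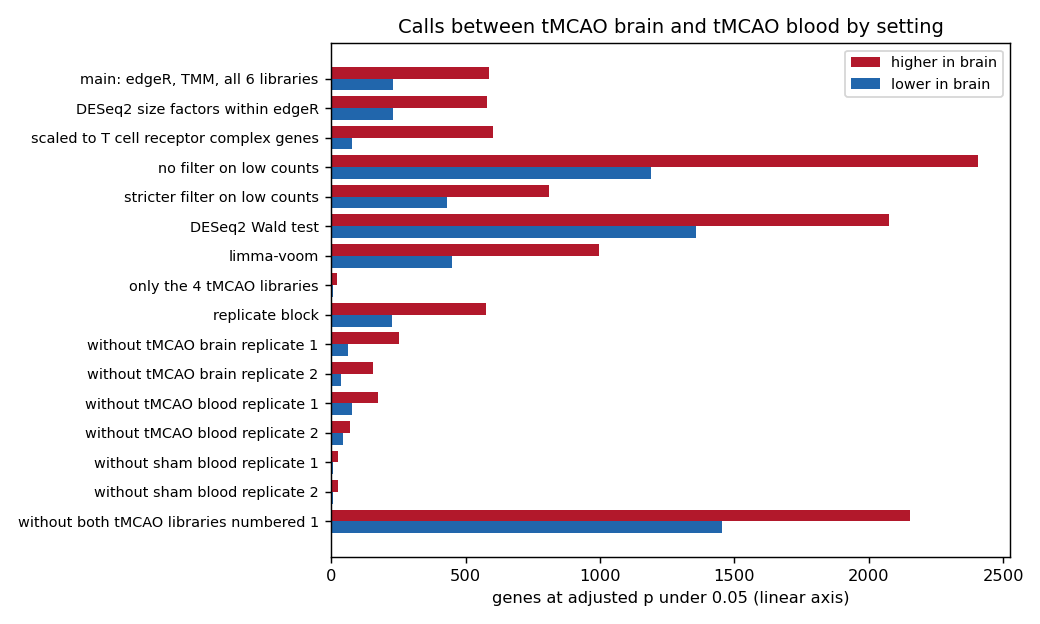
Number of genes called higher (red) and lower (blue) in brain under the reported fit, at the top, and 15 alternatives (linear axis). The fits without either sham library and the fit of the 4 tMCAO libraries alone give 22 to 25 higher genes, while the fits with no filter, with DESeq2 and without both tMCAO libraries numbered 1, where the sham pair alone sets the spread, give 2407, 2077 and 2155.

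Members that moved in opposite directions can be compared by the letters of their upstream sequences. Those of 3 of the most stable called genes, each holding a motif match, are shown. They come from RefSeq on GRCm38.p6, cover the 250 bases before the RefSeq start (the first entry where a gene has several) and run 5′ to 3′ on the gene's strand, with motif matches in capitals. Csf1 lies at chr3:107760470-107760719 on the minus strand and holds a kappaB match on the strand opposite to the gene. Ppbp at chr5:90768268-90768517 on the plus strand holds an AP-1 and then a CArG match. Retnla at chr16:48842359-48842550 on the plus strand holds an ETS match, also on the opposite strand. The start of Retnla lies farther upstream in GENCODE, so its sequence ends there, after 192 bases.
Csf1: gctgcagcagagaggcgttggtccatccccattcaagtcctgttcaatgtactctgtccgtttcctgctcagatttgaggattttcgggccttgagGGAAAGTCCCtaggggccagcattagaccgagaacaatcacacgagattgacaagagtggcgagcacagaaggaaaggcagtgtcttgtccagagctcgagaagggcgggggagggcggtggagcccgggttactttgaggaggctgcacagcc
Ppbp: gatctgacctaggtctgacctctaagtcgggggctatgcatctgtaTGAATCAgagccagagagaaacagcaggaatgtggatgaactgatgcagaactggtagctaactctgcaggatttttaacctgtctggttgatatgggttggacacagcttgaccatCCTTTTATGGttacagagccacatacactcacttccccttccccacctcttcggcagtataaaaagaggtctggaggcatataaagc
Retnla: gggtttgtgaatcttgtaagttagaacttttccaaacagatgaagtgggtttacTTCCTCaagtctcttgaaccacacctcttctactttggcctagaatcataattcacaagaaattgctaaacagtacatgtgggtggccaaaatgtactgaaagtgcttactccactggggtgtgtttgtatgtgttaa
The motifs were searched on both strands as TGACGTCA (cAMP response element), TGANTCA (AP-1), GAGGAA (ETS factors), and the kappaB site and the CArG box by name, and none of these patterns overlaps another in the 3 sequences. The upstream sequences of Gadd45b and Nfkbid, both called higher, held none of these patterns and are not shown. The kappaB pattern was in 7.28% of 453 promoters of higher genes, 5.78% of 173 of lower genes, 4.30% of those of all genes tested with an entry and 3.75% of all 27025 promoters. TGANTCA was in 6.40%, 6.94%, 4.54% and 6.87% in the same order, and GAGGAA in 24.7%, 24.9%, 23.1% and 23.1%. TGACGTCA was in 3.97%, 1.16%, 2.64% and 1.62%, and the CArG box in 1.10%, 1.16%, 1.19% and 1.40%. These shares are descriptions of the letters and were not tested.

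The genes higher in brain that held under the most alternatives encode a macrophage growth factor, matrix proteins, membrane proteins and lipid and protease enzymes. Csf1 (chromosome 3, 107741048 to 107760469, minus strand, GRCm38), the growth factor of microglia and macrophages, stood at 142 and 147 CPM in the brain pair, 4.68 and 5.53 CPM in the blood pair and 4.24 and 4.22 CPM in the sham pair, 28.2-fold higher in brain (log2 4.82 ± 0.28 (SE), edgeR adjusted p = 0.0101). Sparc (chromosome 11, 55394500 to 55423183, minus strand), a matrix-binding glycoprotein made by microglia, stood at 735 and 913 CPM in the brain pair, 0.0538 and 0.0997 CPM in the blood pair and 0 and 0.141 CPM in the sham pair, 10838-fold higher by summed counts (counting interval 3708 to 52559) (edgeR adjusted p = 0.0101). Gem (chromosome 4, 11704457 to 11714752, plus strand), a small GTPase induced on activation, stood at 137 and 238 CPM in the brain pair, 0.969 and 1.15 CPM in the blood pair and 7.702 and 6.54 CPM in the sham pair, 176-fold higher (log2 7.46 ± 0.45 (SE), edgeR adjusted p = 0.0101). Both brain libraries lay far above all 4 blood libraries for each of these genes. Ptgs2, the inducible cyclooxygenase of prostaglandin synthesis, stood at 264 and 227 CPM in the brain pair, 0.162 and 0 CPM in the blood pair and 0.193 and 0.211 CPM in the sham pair. Ch25h, which makes 25-hydroxycholesterol, stood at 72.7 and 49.6 CPM in the brain pair and 0.0538 and 0 CPM in the blood pair and was at 0 in sham blood. Serpine2, a secreted inhibitor of thrombin and related proteases, stood at 635 and 1009 CPM in the brain pair, 0.431 and 1.096 CPM in the blood pair and 12.8 and 14 CPM in the sham pair, 1062-fold higher (log2 10.05 ± 0.66 (SE), edgeR adjusted p = 0.01104). Lag3, an inhibitory receptor of activated T cells, stood at 62.8 and 44.4 CPM in the brain pair, 0.215 and 0.448 CPM in the blood pair and 0.385 and 0.985 CPM in the sham pair, 157-fold higher (log2 7.30 ± 0.66 (SE), edgeR adjusted p = 0.0148). The lysosomal protease gene Ctsf (35.1-fold), the vacuolar ATPase subunit gene Atp6v0d2 (64.96-fold) and the vesicle protein gene Syngr1 (331-fold) were also higher. Tspan7, a tetraspanin, was at 0 in all 4 blood libraries and at 106 and 80.2 CPM in brain, at least 1170-fold higher, and Nav3, a neuron navigator family gene, stood at 38.9 and 54.4 CPM in the brain pair and 0 and 0.0498 CPM in the blood pair. These 12 genes, with the predicted gene Gm2629, passed all 15 alternatives. Syngr1 overlaps the ribosomal protein gene Rpl3, and whether counting used strand is not given in the sources used here.

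**Figure D4:**
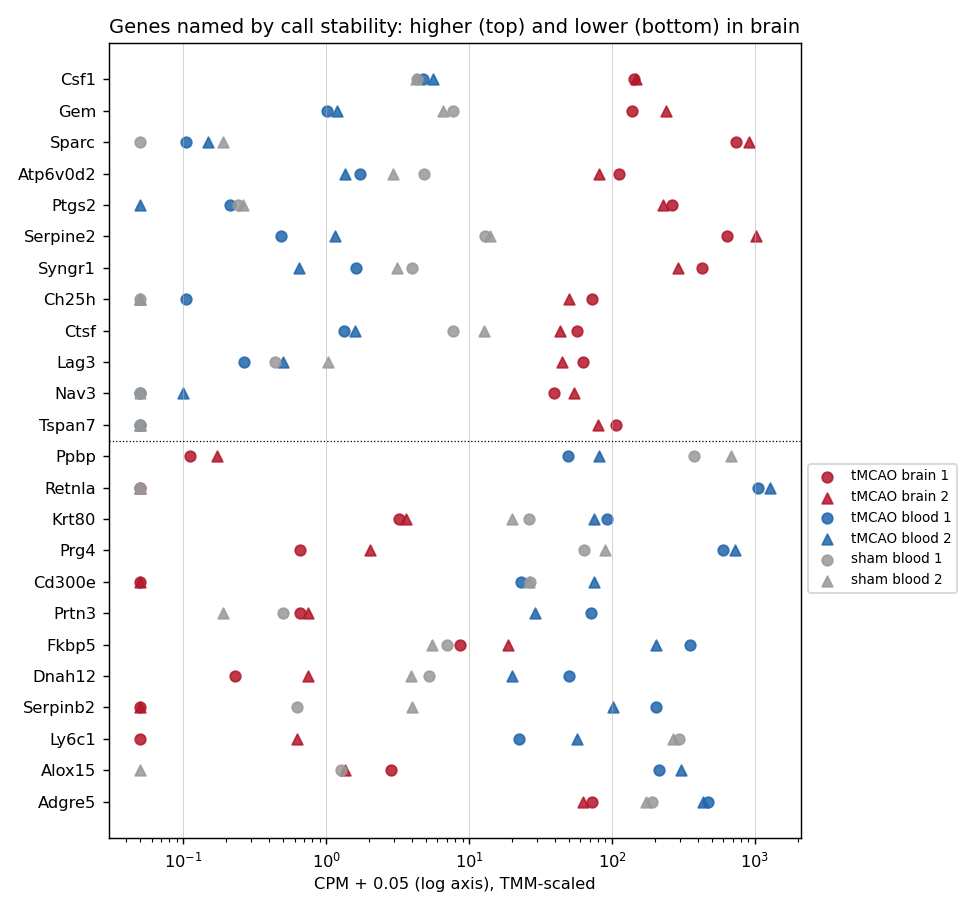
Levels of the 12 higher and 12 lower genes named by the number of alternatives passed, as CPM + 0.05 on a log axis, with 1 point per library, red for brain, blue for blood and grey for sham blood, circles for library 1 and triangles for library 2. Red points lie to the right of blue points in the upper 12 genes and to the left in the lower 12, and the grey points lie below 10 CPM in Retnla, Prtn3, Fkbp5, Dnah12, Serpinb2 and Alox15.

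Markers of microglia were higher in brain, with 16 of 24 called, all of them higher, against the 3.53% of all genes. The median log2 difference of the list was 4.42, and the brain libraries lay above the blood libraries in all 24 genes. The 16 included P2ry12, Sall1, Sall3, Cx3cr1, Gpr34, Siglech, Fcrls, Olfml3, Sparc, Slc2a5, Gpr84, Trem2, Golm1, Tgfbr1 and Bin1. P2ry12, the purine receptor that guides microglial processes, stood at 431 and 523 CPM in the brain pair, 15.8 and 26.4 CPM in the blood pair and 57.3 and 75.4 CPM in the sham pair, 22.6-fold higher (log2 4.50 ± 0.41 (SE), edgeR adjusted p = 0.0148). Gpr34, a lysophosphatidylserine receptor, stood at 624 and 747 CPM in the brain pair, 4.47 and 10.1 CPM in the blood pair and 51.03 and 73.04 CPM in the sham pair, 93.8-fold higher (log2 6.55 ± 0.57 (SE), edgeR adjusted p = 0.0148). Sall1 and Sall3 encode zinc finger factors, of which Sall1 keeps microglial identity. They stood far from blood: Sall1 was at 25.1 and 34.2 CPM in brain and Sall3 at 20.6 and 30.2 CPM, and both were at 0 in all 4 blood libraries. Fcrls, an Fc receptor-like scavenger protein, stood at 1831 and 1331 CPM in the brain pair, 5.599 and 0.947 CPM in the blood pair and 0.0642 and 0.281 CPM in the sham pair, 483-fold higher (edgeR adjusted p = 0.0215). The fractalkine receptor gene Cx3cr1 was 20.2-fold higher, the Golgi protein gene Golm1 12.6-fold and the secreted protein gene Olfml3 1156-fold. P2ry12 and Gpr34 were also present in sham blood, above their levels in tMCAO blood. The summed markers took 2.21% and 2.02% of brain counts against 0.443% and 0.314% of blood counts, and 3 of them, Sall1, Sall3 and Slc2a5, were at 0 in both blood libraries. The part of that share in the lists below that macrophages also express was not tested. The count was 1 to 12 with any 1 of the 6 libraries left out. Of the 8 calls of P2ry12, Gpr34, Sall1, Sall3, Fcrls, Cx3cr1, Golm1 and Olfml3, all 8 were lost without either sham library (edgeR adjusted p = 0.0531 to 0.08298). Leaving out brain library 1, brain library 2, blood library 1 and blood library 2 in turn lost 0, 3, 0 and 2 (edgeR adjusted p = 0.0518 to 0.0555). A fit of only the 4 tMCAO libraries lost all 8 (edgeR adjusted p = 0.0584 to 0.0772), and scaling to T cell receptor complex genes lost 1 (adjusted p = 0.106).

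Some lysosome and lipid-handling genes were higher in brain. Of 30 lysosomal proteases, inhibitors and membrane proteins, 8 were called, all higher (median log2 1.89), and of 28 genes that lipid-laden microglia turn on, 10 were called, all higher (median 2.61). The lysosomal 8 included Ctsa, Ctsd, Ctsf, Cst7, Lgmn, Glb1 and Cd63. Ctsd, the aspartic protease cathepsin D, stood at 6408 and 6472 CPM in the brain pair, 992 and 374 CPM in the blood pair and 87.4 and 102 CPM in the sham pair, 9.43-fold higher (log2 3.24 ± 0.57 (SE), edgeR adjusted p = 0.0368). Lgmn, the asparaginyl protease legumain, stood at 2653 and 1467 CPM in the brain pair and 188 and 110.3 CPM in the blood pair, 13.8-fold higher. Ctsa, the protective carboxypeptidase of lysosomal glycosidases, was 5.76-fold higher. The tetraspanin gene Cd63 was 22.9-fold higher, with 3155 and 1562 CPM in the brain pair and 173 and 33.7 CPM in the blood pair. Processed copies of Cd63 in the genome make its count uncertain. The beta-galactosidase gene Glb1 was 4.08-fold higher. Of the lipid-responsive genes, Cst7, an inhibitor of cysteine proteases, stood at 965 and 1326 CPM in the brain pair, 8.45 and 28.2 CPM in the blood pair and 33.1 and 32.02 CPM in the sham pair, 62.5-fold higher (log2 5.97 ± 0.70 (SE), edgeR adjusted p = 0.0195). Clec7a, the beta-glucan receptor dectin-1, stood at 828 and 813 CPM in the brain pair, 81.1 and 90.8 CPM in the blood pair and 32.9 and 38 CPM in the sham pair, 9.54-fold higher (log2 3.25 ± 0.30 (SE), edgeR adjusted p = 0.0148). Trem2, the lipid-sensing receptor of microglia, stood at 1110 and 802 CPM in the brain pair, 83.2 and 40.4 CPM in the blood pair and 4.62 and 9.43 CPM in the sham pair, 15.5-fold higher. Of 16 genes of sterol export or sterol response, 3 were called, all higher. They were the cholesterol transporters Abca1 (5.204-fold) and Abcg1 (3.86-fold) and Mylip (3.77-fold), a ubiquitin ligase induced by sterols. Of 25 genes for uptake of debris and dead cells, 4 were higher (Gas6, Colec12, Trem2 and Clec7a) and 1, Marco, was lower (median 1.31). Gas6, the bridging ligand of TAM receptors, stood at 223 and 105 CPM in the brain pair and 1.02 and 0.747 CPM in the blood pair, 184-fold higher. The scavenger receptor gene Colec12 was 105-fold higher. Gas6 overlaps Tmem255b. Spp1, the osteopontin gene named in the series title, stood at 19284 and 12353 CPM in the brain pair, 669 and 234 CPM in the blood pair and 0.257 and 5.28 CPM in the sham pair and did not pass (log2 5.13 ± 1.32 (SE), edgeR adjusted p = 0.0742), although brain lay above blood in every library. It passed with DESeq2 (adjusted p = 2.9e-05), limma-voom (0.0146) and no filter on low counts (1.4e-16). Counts of higher genes were 1 to 7 with any 1 of the 6 libraries left out for lysosomal genes and 2 to 9 for lipid-responsive genes. For Ctsd, Lgmn, Cd63, Ctsa, Glb1, Clec7a, Cst7, Trem2, Abca1, Abcg1, Mylip, Gas6 and Colec12, 11 of these 13 calls were lost without either sham library (edgeR adjusted p = 0.0592 to 0.134), which left Gas6 and Colec12. Left out in turn, brain libraries 1 and 2 and blood libraries 1 and 2 lost 7, 7, 9 and 11 (edgeR adjusted p = 0.0506 to 0.105). With only the 4 tMCAO libraries in the fit, 11 (edgeR adjusted p = 0.0599 to 0.113) did not pass, and with scaling to T cell receptor complex genes 10 (adjusted p = 0.122 to 0.513) did not.

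Some secreted growth factors and cytokines were higher in brain, with 7 of 27 growth factors and 8 of 29 interleukins, tumour necrosis factors and interferons called, all of them higher (median log2 3.25 and 1.74). The growth factors were Csf1, Igf1, Pdgfa, Areg, Tgfa, Fgf2 and Osm. Osm encodes oncostatin M, a cytokine of the interleukin 6 family, and stood at 316 and 183 CPM in the brain pair, 14.3 and 9.82 CPM in the blood pair and 19.6 and 13.7 CPM in the sham pair, 20.7-fold higher (log2 4.37 ± 0.44 (SE), edgeR adjusted p = 0.0167). Igf1, a growth factor that supports oligodendrocytes, stood at 436 and 346 CPM in the brain pair, 19.1 and 30.4 CPM in the blood pair and 2.503 and 6.05 CPM in the sham pair, 15.8-fold higher (log2 3.98 ± 0.52 (SE), edgeR adjusted p = 0.02296). Tgfa, a ligand of the epidermal growth factor receptor, was at 0 in all 4 blood libraries and at 16.03 and 27 CPM in brain, at least 291-fold higher. Pdgfa, a growth factor of oligodendrocyte precursors, stood at 20.1 and 15.9 CPM in the brain pair and 1.78 and 1.99 CPM in the blood pair, 9.51-fold higher. The cytokines were Il1a, Il1b, Il12b, Il23a, Ebi3, Tnf, Tnfsf9 and Tnfsf13b. Il1b, which encodes the precursor of interleukin 1 beta, stood at 2160 and 1804 CPM in the brain pair, 16.1 and 7.13 CPM in the blood pair and 14.9 and 33.6 CPM in the sham pair, 171-fold higher (log2 7.41 ± 0.72 (SE), edgeR adjusted p = 0.0151). Tnf, tumour necrosis factor, stood at 285 and 129 CPM in the brain pair, 6.78 and 5.78 CPM in the blood pair and 6.29 and 6.61 CPM in the sham pair, 32.9-fold higher (log2 5.04 ± 0.47 (SE), edgeR adjusted p = 0.0148). Tnfsf9, the ligand of the costimulatory receptor 4-1BB, stood at 161 and 233 CPM in the brain pair and 15.2 and 5.88 CPM in the blood pair, 18.7-fold higher. Ebi3, the subunit shared by interleukins 27 and 35, was 4.87-fold higher with 49.1 and 32.1 CPM in the brain pair, 9.04 and 7.62 CPM in the blood pair and 15.1 and 14 CPM in the sham pair. Tnfsf13b, the B cell survival factor BAFF, was 7.64-fold higher. Among chemokine ligands, 1 of 14 CC ligands was higher, and 1 of 14 other ligands was higher and 1, Ppbp, lower. Over all genes tested, 3.53% were higher and 1.37% lower. Ccl22, a ligand of the Treg receptor Ccr4, stood at 55.1 and 228 CPM in the brain pair and 0.431 and 0 CPM in the blood pair and was at 0 in sham blood. Cxcl16, the ligand of Cxcr6, stood at 446 and 359 CPM in the brain pair, 30.8 and 15.2 CPM in the blood pair and 1.73 and 3.73 CPM in the sham pair. Ccrl2, a receptor that presents chemerin, stood at 1412 and 618 CPM in the brain pair and 22.1 and 9.57 CPM in the blood pair, 64.05-fold higher. Several of these genes are made by macrophages and dendritic cells as well as by T cells, and the part of the microglia and dendritic cell marker shares in them was not tested. Higher growth factors numbered 1 to 5 with any 1 of the 6 libraries left out and higher cytokines 1 to 5. Osm, Igf1, Tgfa, Pdgfa, Il1b, Tnf, Tnfsf9, Ebi3, Tnfsf13b, Ccl22, Cxcl16 and Ccrl2 made 12 calls, of which 11 were lost without either sham library (edgeR adjusted p = 0.0554 to 0.1001), which left Il1b. In fits without brain library 1, brain library 2, blood library 1 and blood library 2, 3, 6, 5 and 10 were lost (edgeR adjusted p = 0.0504 to 0.0871). Scaling to T cell receptor complex genes lost 6 (adjusted p = 0.0662 to 0.246), and a fit without sham blood lost all 12 (edgeR adjusted p = 0.0584 to 0.0835). A further loss was Ccl22 with limma-voom (adjusted p = 0.0591).

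Immediate early genes, which cells switch on soon after a stimulus, and NF-kB genes were among those higher in brain. Of 34 immediate early transcription factors and feedback genes, 18 were called, all higher in brain (median log2 3.14). Of 22 NF-kB subunits, inhibitors and targets, 9 were called, all higher (median 1.61). The 18 were Fosb, Jun, Junb, Egr1, Egr3, Nr4a1, Nr4a2, Nr4a3, Ier2, Atf3, Btg2, Zfp36, Zfp36l1, Ppp1r15a, Gadd45b, Maff, Csrnp1 and Rgs1. Egr1, a zinc finger factor induced within minutes of a stimulus, stood at 592 and 455 CPM in the brain pair, 14.97 and 6.93 CPM in the blood pair and 3.08 and 4.08 CPM in the sham pair, 47.8-fold higher (log2 5.58 ± 0.51 (SE), edgeR adjusted p = 0.0148). Fosb, a subunit of AP-1, stood at 199 and 137 CPM in the brain pair, 1.99 and 0.548 CPM in the blood pair and 0.834 and 0.704 CPM in the sham pair, 133-fold higher (log2 7.05 ± 0.68 (SE), edgeR adjusted p = 0.0151). Gadd45b, a stress-induced regulator of kinase signalling, stood at 618 and 299.9 CPM in the brain pair, 16.2 and 17.8 CPM in the blood pair and 24.5 and 26.2 CPM in the sham pair, 26.98-fold higher (log2 4.75 ± 0.45 (SE), edgeR adjusted p = 0.0148). In these 3 genes all 4 blood libraries lay far below brain. Btg2, an antiproliferative gene, was 13.2-fold higher with 1811 and 1122 CPM in the brain pair and 114 and 107 CPM in the blood pair, and Csrnp1 was 9.63-fold higher. Ppp1r15a, which restarts translation after stress, was 39.6-fold higher with 548 and 380.4 CPM in the brain pair, 17.3 and 6.13 CPM in the blood pair and 53.3 and 95.2 CPM in the sham pair. The NF-kB genes called were Nfkb2, Rel, Relb, Nfkbib, Nfkbid, Nfkbie, Nfkbiz, Tnfaip3 and Icam1. Nfkbid, a nuclear inhibitor of the family, stood at 442 and 357 CPM in the brain pair, 18.8 and 18.4 CPM in the blood pair and 31.3 and 41.4 CPM in the sham pair, 21.5-fold higher (log2 4.42 ± 0.33 (SE), edgeR adjusted p = 0.01104). Nfkbiz, a nuclear cofactor, stood at 640.3 and 694 CPM in the brain pair and 54.97 and 43.5 CPM in the blood pair, 13.6-fold higher (log2 3.76 ± 0.34 (SE), edgeR adjusted p = 0.0148). Tnfaip3, the deubiquitinase A20 that ends NF-kB signalling, stood at 441 and 784 CPM in the brain pair and 22.9 and 25.96 CPM in the blood pair, 25.1-fold higher. Relb, a subunit of the alternative pathway, was 10.4-fold higher. Icam1, the ligand of LFA-1 integrin, stood at 236 and 290.4 CPM in the brain pair, 9.85 and 3.39 CPM in the blood pair and 29.3 and 58.7 CPM in the sham pair, 39.8-fold higher. The labels describe the same sort for brain and blood but give no digestion step or time from death to lysis, and their part in the immediate early genes was not tested. Counts of higher immediate early genes were 0 to 14 with any 1 of the 6 libraries left out and of NF-kB genes 1 to 6. Of the 11 calls of Egr1, Gadd45b, Fosb, Btg2, Csrnp1, Ppp1r15a, Nfkbid, Nfkbiz, Relb, Tnfaip3 and Icam1, 10 were lost without either sham library (edgeR adjusted p = 0.055 to 0.0653), which left Nfkbid. Leaving out brain library 1, brain library 2, blood library 1 and blood library 2 in turn lost 0, 0, 1 and 6 (edgeR adjusted p = 0.0533 to 0.0608). A fit of only the 4 tMCAO libraries lost 10 (edgeR adjusted p = 0.0585 to 0.0625), and scaling to T cell receptor complex genes lost 6 (adjusted p = 0.0533 to 0.151).

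Some costimulatory ligands and dendritic cell genes were higher in brain. Of 20 costimulatory and checkpoint genes, 8 were called, all higher (median log2 2.38): Cd86, Cd83, Cd274, Pdcd1lg2, Icosl, Pvr, Lag3 and Havcr2. Cd83, a surface protein of mature dendritic cells and activated lymphocytes, stood at 2554 and 4117 CPM in the brain pair, 3.39 and 7.08 CPM in the blood pair and 37.4 and 53.2 CPM in the sham pair, 636-fold higher (log2 9.31 ± 0.70 (SE), edgeR adjusted p = 0.0111). Cd86, the ligand of CD28 and CTLA-4, stood at 468 and 379.5 CPM in the brain pair, 78.2 and 47.9 CPM in the blood pair and 36.97 and 39.5 CPM in the sham pair, 6.72-fold higher (log2 2.75 ± 0.35 (SE), edgeR adjusted p = 0.0223). Icosl, the ligand of ICOS, stood at 25.9 and 48.2 CPM in the brain pair and 2.1 and 1.64 CPM in the blood pair, 19.7-fold higher. The checkpoint receptor gene Havcr2 was 6.98-fold higher with 96.1 and 138 CPM in the brain pair and 16.3 and 17.2 CPM in the blood pair. Of 20 dendritic cell markers, 9 were called, all higher (median 3.75): Flt3, Cd209a, Itgax, Fscn1, Ccl22, Il12b, Siglech, Tcf4 and Cd83. Flt3, the growth factor receptor of dendritic cell precursors, stood at 30.9 and 121 CPM in the brain pair, 1.4 and 1.395 CPM in the blood pair and 3.02 and 3.03 CPM in the sham pair, 54.1-fold higher, with brain library 2 above library 1. Fscn1, the actin bundler of migrating dendritic cells, stood at 41.1 and 172 CPM in brain and at 0 in both blood libraries, at least 1535-fold higher. Cd209a, a lectin of monocyte-derived dendritic cells, stood at 61.8 and 65.9 CPM in the brain pair, 3.82 and 6.38 CPM in the blood pair and 15.4 and 15.97 CPM in the sham pair, 12.5-fold higher (log2 3.64 ± 0.36 (SE), edgeR adjusted p = 0.0151). Siglech, a lectin shared by microglia and plasmacytoid dendritic cells, stood at 175 and 244 CPM in the brain pair and 1.35 and 3.84 CPM in the blood pair, 80.5-fold higher. Summed, dendritic cell markers took 0.369% and 0.690% of brain counts against 0.0433% and 0.0367% of blood counts. Among 30 transcription factors of myeloid cells, 7 were higher (Irf8, Sall1, Sall3, Mef2c, Nr4a1, Bhlhe40 and Bhlhe41) and 1, Cebpb, was lower. Bhlhe41 stood at 32.5 and 33.2 CPM in the brain pair and 0.538 and 0.698 CPM in the blood pair, 52.5-fold higher, and Irf8, a factor of microglia and dendritic cells, was 4.996-fold higher. Counts of higher genes were 2 to 5 with any 1 of the 6 libraries left out for costimulatory genes and 1 to 9 for dendritic cell markers. For Cd83, Cd86, Icosl, Havcr2, Cd209a, Siglech, Fscn1, Flt3, Bhlhe41 and Irf8, 8 of these 10 calls were lost without either sham library (edgeR adjusted p = 0.055 to 0.08298), which left Cd83 and Bhlhe41. Left out in turn, brain libraries 1 and 2 and blood libraries 1 and 2 lost 0, 3, 7 and 8 (edgeR adjusted p = 0.0506 to 0.0786). With only the 4 tMCAO libraries in the fit, 9 (edgeR adjusted p = 0.0525 to 0.0772) did not pass, and with scaling to T cell receptor complex genes 3 (adjusted p = 0.209 to 0.415) did not. A further loss was Fscn1 with limma-voom (adjusted p = 0.0509).

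Interferon-stimulated genes and innate sensors showed smaller differences. Of 40 interferon-stimulated genes, 6 were called, all higher (Isg15, Ifit1, Ifi44, Irf7, Oasl1 and Usp18, median log2 0.76). The summed share of the list ran the other way, at 0.734% and 0.437% of the brain counts, 1.32% and 0.8298% of the blood counts and 0.721% and 0.595% of the sham counts. Isg15, a ubiquitin-like modifier, stood at 30.2 and 42.9 CPM in the brain pair, 1.78 and 1.45 CPM in the blood pair and 32.3 and 23.5 CPM in the sham pair, 22.6-fold higher (log2 4.50 ± 0.39 (SE), edgeR adjusted p = 0.0148). Usp18, which removes that modifier, stood at 273 and 128 CPM in the brain pair, 23.1 and 26.5 CPM in the blood pair and 83.2 and 81.6 CPM in the sham pair, 8.09-fold higher. Irf7, the amplifier of type I interferon, stood at 456 and 323 CPM in the brain pair, 100.1 and 97.6 CPM in the blood pair and 381 and 289.8 CPM in the sham pair, 3.94-fold higher. For Isg15, Usp18 and Irf7 the sham libraries lay above the tMCAO blood libraries. Ifi44 was 6.49-fold and Ifit1, an RNA-binding antiviral protein gene, 4.39-fold higher. Of 22 Toll-like receptors and adaptors, 3 were called, all higher. They were Tlr2, which binds bacterial lipoproteins, at 552 and 571 CPM in the brain pair and 67.3 and 14.2 CPM in the blood pair, and the kinase gene Irak2 at 177 and 72.7 CPM in the brain pair and 17.7 and 15.5 CPM in the blood pair. The third, Unc93b1, which carries nucleic acid-sensing receptors to endosomes, stood at 1170 and 701 CPM in the brain pair and 189 and 111 CPM in the blood pair. Nlrp3, the inflammasome sensor, stood at 88.8 and 89.2 CPM in the brain pair, 4.79 and 2.14 CPM in the blood pair and 0.963 and 0.422 CPM in the sham pair, 25.7-fold higher (edgeR adjusted p = 0.0193). It was the 1 call among 11 inflammasome genes. Higher interferon-stimulated genes numbered 0 to 3 with any 1 of the 6 libraries left out. Isg15, Ifi44, Usp18, Irf7, Ifit1, Tlr2, Irak2, Unc93b1 and Nlrp3 made 9 calls, of which all 9 were lost without either sham library (edgeR adjusted p = 0.055 to 0.122). In fits without brain library 1, brain library 2, blood library 1 and blood library 2, 4, 5, 6 and 7 were lost (edgeR adjusted p = 0.05305 to 0.113). Scaling to T cell receptor complex genes lost 7 (adjusted p = 0.147 to 0.465), and a fit without sham blood lost all 9 (edgeR adjusted p = 0.0585 to 0.107).

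A part of the monocyte markers and a few genes of alternative activation were lower in brain. Of 24 monocyte markers, 10 were lower (among them Chil3, Plac8, Fn1, Lyz1, Ifitm6, S100a4, Treml4, Cd300e and Adgre4) and 1, Nr4a1, was higher (median log2 -2.89, against 1.37% of all genes lower). Retnla (chromosome 16, 48842551 to 48844461, plus strand), a secreted resistin-like protein of alternatively activated macrophages, stood at 1049 and 1269 CPM in blood and at 0 in both brain libraries and in both sham libraries, at least 15902-fold lower in brain (edgeR adjusted p = 0.0138). Prg4 (chromosome 1, 150449412 to 150466165, minus strand), the lubricating proteoglycan that peritoneal macrophages also make, stood at 0.605 and 1.96 CPM in the brain pair, 595 and 727 CPM in the blood pair and 63.4 and 88.7 CPM in the sham pair, 501-fold lower (log2 -8.97 ± 0.72 (SE), edgeR adjusted p = 0.0138), and overlaps Tpr. Alox15, a lipoxygenase of resident peritoneal macrophages and eosinophils, stood at 2.78 and 1.31 CPM in the brain pair, 214 and 305 CPM in the blood pair and 1.22 and 0 CPM in the sham pair, 128-fold lower (log2 -7.00 ± 1.14 (SE), edgeR adjusted p = 0.0333). Serpinb2, a plasminogen activator inhibitor, stood at 202 and 102 CPM in blood, 0.578 and 3.94 CPM in sham blood and at 0 in brain. For Retnla, Alox15 and Serpinb2 the tMCAO blood libraries stood apart from sham blood as well as from brain. Fn1, fibronectin, stood at 132 and 176 CPM in the brain pair, 6350 and 1434 CPM in the blood pair and 23.2 and 17.4 CPM in the sham pair, 25.3-fold lower (log2 -4.66 ± 0.80 (SE), edgeR adjusted p = 0.0348). Slpi, a secreted inhibitor of neutrophil elastase, stood at 89 and 23.1 CPM in the brain pair, 4670 and 1210 CPM in the blood pair and 11.5 and 11.4 CPM in the sham pair, 52.5-fold lower. Cd300e, an activating receptor of patrolling monocytes, stood at 22.9 and 74.8 CPM in blood, 26.8 and 26.1 CPM in sham blood and at 0 in brain, at least 682-fold lower. Adgre4, an adhesion receptor of the same cells, stood at 2.96 and 0.4902 CPM in the brain pair, 139 and 167 CPM in the blood pair and 102 and 113 CPM in the sham pair, 90.9-fold lower. In the same list Treml4 was 12.4-fold lower and Ifitm6 26.1-fold lower. The eosinophil-associated ribonuclease gene Ear2, which has near-identical copies, stood at 10.3 and 1.84 CPM in the brain pair, 178 and 342 CPM in the blood pair and 104 and 89.2 CPM in the sham pair. Fcgr4, an activating receptor for immunoglobulin G, was 6.22-fold lower. Marco, a scavenger receptor, was at 32.2 and 6.63 CPM in blood and at 0 in the other 4 libraries. Crip1, a zinc-binding LIM protein gene, stood at 571 and 471 CPM in the brain pair, 6722 and 3211 CPM in the blood pair and 1548 and 998 CPM in the sham pair, 9.54-fold lower. Of 19 genes of alternative activation, 10 overlapped between brain and blood, 6 were lower (Arg1, Retnla, Chil3, Ear2, Alox15 and Fn1) and 1, Ccl22, was higher, but the median of -0.17 turned to 0.31 with scaling to T cell receptor complex genes. The summed monocyte markers overlapped between the groups, at 2.94% and 1.28% of counts in brain and 3.42% and 1.57% in blood. Counts of lower monocyte markers were 0 to 5 with any 1 of the 6 libraries left out and of lower alternative activation genes 2 to 3. Of the 12 calls of Alox15, Ear2, Fn1, Slpi, Ifitm6, Adgre4, Treml4, Cd300e, Serpinb2, Fcgr4, Marco and Crip1, 10 were lost without either sham library (edgeR adjusted p = 0.055 to 0.117), which left Alox15 and Serpinb2. Leaving out brain library 1, brain library 2, blood library 1 and blood library 2 in turn lost 8, 9, 8 and 7 (edgeR adjusted p = 0.0514 to 0.116). A fit of only the 4 tMCAO libraries lost 11 (edgeR adjusted p = 0.0517 to 0.0985), and scaling to T cell receptor complex genes lost 7 (adjusted p = 0.106 to 0.732). Further losses were Marco with the DESeq2 Wald test (adjusted p = 0.08499) and Marco with limma-voom (adjusted p = 0.0665).

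A few genes of circulating lymphocytes and of other blood cells were also lower in brain. Of 20 genes of recirculation and rest, 4 were called, all lower, and 13 overlapped between brain and blood. The median log2 was -1.02, or -0.22 with scaling to T cell receptor complex genes. Klf2, the factor that keeps T cells in circulation, stood at 37.9 and 67.7 CPM in the brain pair, 519 and 409.6 CPM in the blood pair and 175 and 116 CPM in the sham pair, 8.78-fold lower (log2 -3.13 ± 0.43 (SE), edgeR adjusted p = 0.0248). Ly6c1 stood at 0 and 0.572 CPM in the brain pair, 22.3 and 56.6 CPM in the blood pair and 294 and 268 CPM in the sham pair, 122-fold lower. Klf3 was 3.03-fold lower. Klf2 was higher in tMCAO blood than in sham blood in both libraries, whereas Ly6c1 was lower there. Within the blood pair Klf2 fell from library 1 to library 2, whereas 19 of the 20 recirculation genes rose (median log2 1.98 over the list). Which cells the differences in this paragraph came from was not tested. Adgre5, the leukocyte adhesion receptor CD97, stood at 72.4 and 62.2 CPM in the brain pair, 471 and 436 CPM in the blood pair and 192 and 173 CPM in the sham pair, 6.74-fold lower (log2 -2.75 ± 0.29 (SE), edgeR adjusted p = 0.0167), and overlaps Ddx39. Fkbp5, a glucocorticoid-induced cochaperone, stood at 8.53 and 18.7 CPM in the brain pair, 353 and 203 CPM in the blood pair and 6.93 and 5.42 CPM in the sham pair, 20.4-fold lower (log2 -4.35 ± 0.53 (SE), edgeR adjusted p = 0.0215). Krt80, a keratin, stood at 3.21 and 3.55 CPM in the brain pair, 92.3 and 75.1 CPM in the blood pair and 26.1 and 19.9 CPM in the sham pair, 24.7-fold lower. Dnah12, an axonemal dynein, was 75.6-fold lower. Prtn3, the neutrophil protease proteinase 3, stood at 0.605 and 0.694 CPM in the brain pair, 71.3 and 29.05 CPM in the blood pair and 0.449 and 0.141 CPM in the sham pair, 76.1-fold lower, and overlaps Plppr3. Of 15 neutrophil markers tested, 3 were lower (Prtn3, Stfa3 and Ifitm6) and 1, Csf3r, was higher. Their sum took 0.196% and 0.0332% of brain counts and 0.134% and 0.882% of blood counts. The count of lower recirculation genes was 0 to 1 with any 1 of the 6 libraries left out. For Klf2, Klf3, Ly6c1, Adgre5, Fkbp5, Dnah12 and Prtn3, all 7 calls were lost without either sham library (edgeR adjusted p = 0.055 to 0.129). Left out in turn, brain libraries 1 and 2 and blood libraries 1 and 2 lost 2, 4, 3 and 3 (edgeR adjusted p = 0.0523 to 0.149). With only the 4 tMCAO libraries in the fit, all 7 (edgeR adjusted p = 0.0585 to 0.0947) did not pass, and with scaling to T cell receptor complex genes 4 (adjusted p = 0.114 to 0.933) did not. A further loss was Klf3 with the replicate number as a block (adjusted p = 0.0614).

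Some platelet and red cell genes were lower in brain than in blood. Of 14 platelet and megakaryocyte markers, 6 were called, all lower (among them Ppbp, Itga2b, Gp1ba, Gp5 and Clec1b), with a median log2 of -3.34. Ppbp (chromosome 5, 90768518 to 90770063, plus strand), the platelet chemokine precursor, stood at 0.0605 and 0.123 CPM in the brain pair, 48.99 and 80.8 CPM in the blood pair and 377 and 677 CPM in the sham pair, 629.7-fold lower (log2 -9.30 ± 0.66 (SE), edgeR adjusted p = 0.01104), and passed all 15 alternatives. Itga2b, the platelet integrin chain, stood at 0.484 and 0.572 CPM in the brain pair, 4.52 and 12.3 CPM in the blood pair and 63.1 and 83.8 CPM in the sham pair, 15.6-fold lower. The receptor gene Clec1b was 11.5-fold lower. Gp5, a chain of the platelet adhesion receptor, stood at 0.6999 and 1.196 CPM in blood and at 0 in brain. Sham blood lay above tMCAO blood for each of these 4 genes. The globin genes Hbb-bs, Hba-a1 and Hba-a2 were lower too, with Hbb-bs at 0.423 and 0 CPM in the brain pair, 572 and 17355 CPM in the blood pair and 72632 and 76933 CPM in the sham pair (edgeR adjusted p = 0.03499). The 2 blood libraries were far apart in Hbb-bs, and the globin genes have near-identical copies. Of 15 red cell genes, Ermap was higher, at 2.42 and 2.37 CPM in brain and 0 in blood. The list's median was -7.78, or -5.95 with genes at 0 set to their bound. Counts of lower platelet genes were 1 to 3 with any 1 of the 6 libraries left out and of red cell genes 0 to 8. Clec1b, Itga2b, Gp5, Gp1ba, Hbb-bs, Hba-a1 and Hba-a2 made 7 calls, of which all 7 were lost without either sham library (edgeR adjusted p = 0.0853 to 0.125). In fits without brain library 1, brain library 2, blood library 1 and blood library 2, 7, 7, 2 and 6 were lost (edgeR adjusted p = 0.0506 to 0.105). Scaling to T cell receptor complex genes lost 4 (adjusted p = 0.0811 to 0.494), and a fit without sham blood lost all 7 (edgeR adjusted p = 0.0888 to 0.114). Further losses were Itga2b, Gp5, Gp1ba, Hbb-bs, Hba-a1 and Hba-a2 with limma-voom (adjusted p = 0.0579 to 0.147) and Gp5 with the replicate number as a block (adjusted p = 0.0511).

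A few genes of Treg identity were called higher in brain, where 3.53% of all genes tested were called higher. Of 19 Treg core genes, 2 were called, both higher (median log2 0.33), and of 20 tissue Treg genes, 2 were called, both higher (median 0.13). Areg, amphiregulin, a repair factor of tissue Tregs, stood at 8.89 and 38.4 CPM in the brain pair, 0.162 and 0 CPM in the blood pair and 2.57 and 1.55 CPM in the sham pair, 341-fold higher by summed counts (counting interval 117 to 1658) (edgeR adjusted p = 0.0334). Ccr8, a chemokine receptor of tissue Tregs, stood at 5.08 and 29.3 CPM in the brain pair, 0.431 and 0.0997 CPM in the blood pair and 7.12 and 5.77 CPM in the sham pair, 64.02-fold higher (log2 6.00 ± 1.15 (SE), edgeR adjusted p = 0.0438), and brain lay on both sides of sham blood. For Areg and Ccr8, brain library 2 lay above library 1. That library also held the larger shares of T cell receptor genes, of B cell markers (0.0723% and 1.43% in the brain pair) and of markers of CD8 T, natural killer and innate lymphoid cells, which took 0.0406% and 0.277% of the brain counts, 0.0508% and 0.155% of the blood counts and 0.0543% and 0.0821% of the sham counts, and their part in both genes was not tested. None of the 19 markers of CD8 T, natural killer and innate lymphoid cells was called by edgeR (3 at an unadjusted p under 0.05, 2 higher and 0 lower by DESeq2, 0 and 0 by limma-voom). Swap70, a guanine nucleotide exchange factor of lymphocytes and macrophages, stood at 90.99 and 88.2 CPM in the brain pair, 26.1 and 31.5 CPM in the blood pair and 34.3 and 46.5 CPM in the sham pair, 3.11-fold higher. Il10ra, the interleukin 10 receptor chain, stood at 175 and 153 CPM in the brain pair, 53.7 and 65.7 CPM in the blood pair and 46.1 and 62.6 CPM in the sham pair, 2.75-fold higher. Brain libraries were close to each other in both of these genes. None of 20 T cell receptor complex genes and none of 8 GIMAP GTPases, which sustain lymphocyte survival, was called by edgeR, and 19 and 8 of them overlapped between brain and blood. In both lists 0 genes had an unadjusted p under 0.05, and DESeq2 and limma-voom called 0. Without both tMCAO libraries numbered 1, a fit whose spread came from the sham pair alone, 9 of the 20 were lower and 1 higher, and 4 of the 8 were lower. Trbc2, a constant segment of the receptor beta chain, stood at 23.8 and 147 CPM in the brain pair and 85.2 and 596 CPM in the blood pair, and Lcp2, an adaptor of receptor signalling, at 277 and 234 CPM in the brain pair and 229.8 and 165 CPM in the blood pair. The 2 Treg core calls and the 2 tissue Treg calls became 0 to 1 and 0 to 2 with any 1 of the 6 libraries left out. Of the 4 calls of Areg, Ccr8, Swap70 and Il10ra, all 4 were lost without either sham library (edgeR adjusted p = 0.0906 to 0.147). Leaving out brain library 1, brain library 2, blood library 1 and blood library 2 in turn lost 2, 4, 4 and 4 (edgeR adjusted p = 0.0692 to 0.137). A fit of only the 4 tMCAO libraries lost all 4 (edgeR adjusted p = 0.0839 to 0.108), and scaling to T cell receptor complex genes lost 2 (adjusted p = 0.483 to 0.579). Further losses were Il10ra with DESeq2 size factors within edgeR (adjusted p = 0.0506), Areg and Ccr8 with limma-voom (adjusted p = 0.0883 to 0.104) and Ccr8 and Il10ra with the replicate number as a block (adjusted p = 0.0549 to 0.0557).

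Antigen presentation, translation, respiration and division gave few calls or none in edgeR, where 3.53% of all genes tested were higher and 1.37% lower. None of 13 class II presentation genes passed in edgeR, although brain lay above blood in 10 and the median log2 was 1.65. The list held 4 at an unadjusted p under 0.05, 3 higher and 0 lower by DESeq2, 1 and 0 by limma-voom. Cd74, the invariant chain, stood at 4107 and 6063 CPM in the brain pair, 565 and 509 CPM in the blood pair and 370 and 1644 CPM in the sham pair (edgeR adjusted p = 0.0626), and the protease gene Ctss at 13178 and 8483 CPM in the brain pair and 5467 and 2894 CPM in the blood pair. None of 20 class I genes passed in edgeR (median 0.16; 6 at an unadjusted p under 0.05, 1 higher and 1 lower by DESeq2, 0 and 0 by limma-voom), with B2m, the class I light chain, at 11526 and 8274 CPM in the brain pair and 10452 and 7369 CPM in the blood pair. Of 50 ribosomal protein genes 1 was lower, Rpl38, at 163 and 210.2 CPM in the brain pair, 652 and 699 CPM in the blood pair and 313 and 255 CPM in the sham pair, 3.62-fold lower. Brain lay below blood in 45 of the 50, and the median was -1.01, or -0.38 with scaling to T cell receptor complex genes. The ribosomal list held 34 at an unadjusted p under 0.05, 0 higher and 36 lower by DESeq2, 0 and 12 by limma-voom. Of 31 nuclear-encoded respiratory chain genes 2 were lower, Atp5e (3.102-fold) and Ndufa4 (2.89-fold), at a median of -0.55, or -0.03 with that scaling. Here 16 had an unadjusted p under 0.05, with 1 higher and 13 lower by DESeq2, 0 and 6 by limma-voom. None of 13 mitochondrially encoded genes was called by edgeR, with a median of -0.16, or 0.17 with that scaling. Of these genes 0 had an unadjusted p under 0.05, and DESeq2 and limma-voom called 0. Of 40 cell cycle genes none was called by edgeR, and the median of -0.58 turned to 0.03 with that scaling. The cell cycle list held 5 at an unadjusted p under 0.05, 1 higher and 4 lower by DESeq2, 0 and 0 by limma-voom. Of 29 glycolysis and hypoxia genes 3 were higher: Pfkfb3, which sets the rate of glycolysis, at 123 and 125 CPM in the brain pair and 19.9 and 12.8 CPM in the blood pair, 7.598-fold higher. The others were Egln3, an oxygen sensor (5.85-fold), and Bnip3, a mitophagy receptor (5.66-fold). The heat shock cochaperone genes Dnajb1 and Dnajb4 were 5.12-fold and 3.05-fold higher, 2 of 15, and Nfe2l2, the regulator of the oxidative stress response, was 5.203-fold higher. For Pfkfb3, Egln3, Bnip3, Dnajb1, Dnajb4, Nfe2l2, Atp5e, Ndufa4 and Rpl38, all 9 calls were lost without either sham library (edgeR adjusted p = 0.0624 to 0.149). Left out in turn, brain libraries 1 and 2 and blood libraries 1 and 2 lost 8, 8, 7 and 9 (edgeR adjusted p = 0.0548 to 0.139). With only the 4 tMCAO libraries in the fit, all 9 (edgeR adjusted p = 0.0617 to 0.113) did not pass, and with scaling to T cell receptor complex genes all 9 (adjusted p = 0.207 to 0.923) did not. Further losses were Egln3, Dnajb4 and Ndufa4 with the replicate number as a block (adjusted p = 0.05295 to 0.0628).

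Markers of oligodendrocytes, astrocytes, neurons and endothelial and stromal cells each took 0.0831% or less of the counts in either brain library. Of 10 oligodendrocyte and precursor genes tested, 1 was higher, Cspg4, the NG2 proteoglycan, at 11.6 and 11.7 CPM in the brain pair and 0 and 0.0498 CPM in the blood pair. Of 11 astrocyte genes, 2 were higher. Clu, the extracellular chaperone clusterin, stood at 86.6 and 195 CPM in the brain pair, 12.3 and 25.01 CPM in the blood pair and 262 and 400 CPM in the sham pair. The metallothionein gene Mt3 stood at 2.78 and 34.3 CPM in the brain pair and 0 and 0.0498 CPM in the blood pair. Clu was highest in sham blood. The medians of these lists were 5.19 and 5.35, or 4.66 and 4.42 with genes at 0 set to their bound. The oligodendrocyte markers took 0.0227% and 0.0831% of counts in brain, 0.0125% and 0.0255% in blood and 0.0440% and 0.0443% in sham blood. The astrocyte markers took 0.0127% and 0.0407% in brain, 0.00195% and 0.0046% in blood and 0.0283% and 0.0406% in sham blood. In both lists the sham shares lay between those of the brain pair. None of 8 neuronal genes and none of 9 endothelial and stromal genes was called by edgeR. The neuronal genes included 3 at an unadjusted p under 0.05, 0 higher and 2 lower by DESeq2, 1 and 0 by limma-voom. The endothelial and stromal genes included 4 at an unadjusted p under 0.05, 3 higher and 1 lower by DESeq2, 1 and 1 by limma-voom. None of 15 markers of border-associated macrophages was called by edgeR (2 at an unadjusted p under 0.05, 2 higher and 0 lower by DESeq2, 1 and 0 by limma-voom). Their share was 0.521% and 0.0612% of brain counts and 0.351% and 0.125% of blood counts. The brain libraries differed there: Mrc1, the mannose receptor, stood at 1038 and 24.96 CPM in the brain pair, 273 and 119 CPM in the blood pair and 2.44 and 4.64 CPM in the sham pair. The chemokine gene Pf4 stood at 589 and 37.1 CPM in the brain pair, 1839 and 449 CPM in the blood pair and 443 and 541 CPM in the sham pair. Of 10 genes of eosinophils, basophils and mast cells, 1 was higher and 2 were lower (Ear2 and Ccr3). The higher gene was Siglecf, a lectin of eosinophils that microglia can express, at 34.6 and 36.5 CPM in the brain pair and 0.108 and 0 CPM in the blood pair. Of 29 matrix proteins, proteases and inhibitors, 4 were higher (Sparc, Serpine2, Olfml3 and Adamts1) and 3 were lower (Fn1, Serpinb2 and Ecm1). Adamts1, a secreted metalloprotease, stood at 21.2 and 66.2 CPM in brain and 0 in blood. B cell markers took 0.0723% and 1.43% of brain counts, the widest ratio within the brain pair among the cell types plotted. Of 20 tested, 1 was higher, Blnk, an adaptor that macrophages also express, at 327 and 203 CPM in the brain pair and 24.4 and 9.57 CPM in the blood pair. Counts of higher oligodendrocyte genes and astrocyte genes were 0 to 2 and 0 to 2 with any 1 of the 6 libraries left out. Cspg4, Clu, Mt3, Siglecf and Adamts1 made 5 calls, of which all 5 were lost without either sham library (edgeR adjusted p = 0.055 to 0.124). In fits without brain library 1, brain library 2, blood library 1 and blood library 2, 1, 3, 4 and 5 were lost (edgeR adjusted p = 0.0532 to 0.129). Scaling to T cell receptor complex genes lost 1 (adjusted p = 0.182), and a fit without sham blood lost all 5 (edgeR adjusted p = 0.0585 to 0.102). A further loss was Mt3 with limma-voom (adjusted p = 0.1698).

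**Figure D5:**
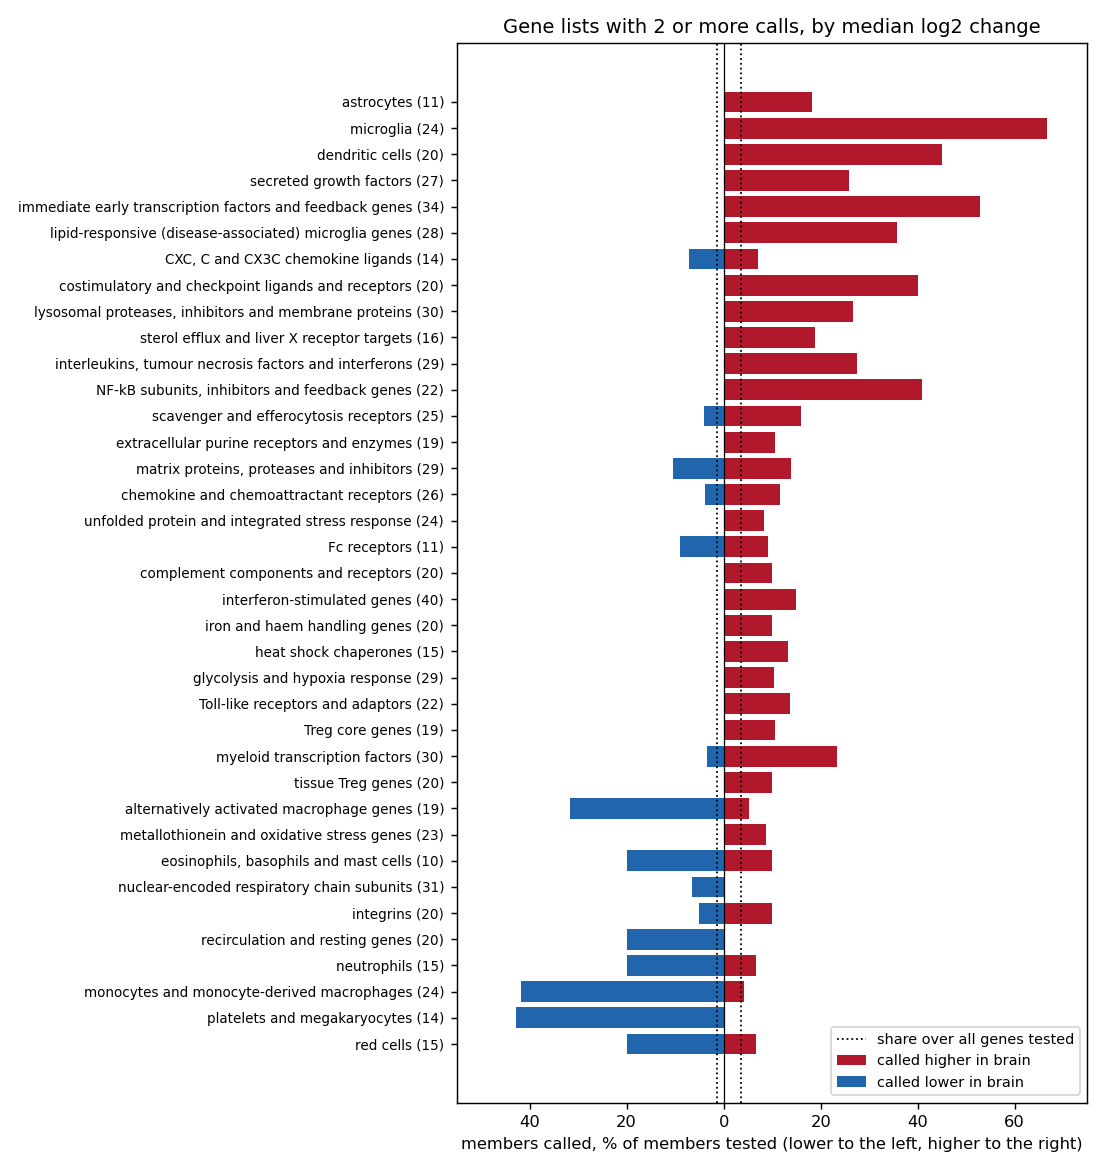
Share of the tested members of each gene list called higher (red, to the right) or lower (blue, to the left) in brain, in percent, for lists with 2 or more calls, ordered by median log2 difference, with the number of members tested in brackets. Dotted lines mark the shares over all genes tested, 3.53% higher and 1.37% lower, and microglia markers (16 of 24 higher) and platelet markers (6 of 14 lower) extend farthest.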

How the data were processed

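Messenger RNA was measured by bulk RNA sequencing in 6 libraries of cells sorted as Tregs, of which the 2 of tMCAO brain and the 2 of tMCAO blood are compared here. Per the labels' protocols, cDNA came from a SMART-Seq ultralow input kit and libraries from Nextera XT, read as paired ends of 75 bases. The kits use no molecular identifiers, so reads copied from the same molecule cannot be told apart. Counting intervals and the limits set by a count of 0 treat reads as independent and may be too narrow. They hold no spread between libraries. The files hold whole-number read counts per gene, deposited by the authors, who made them with STAR (version not given) and HTSeq 0.11.2 on GRCm38, per the submitters' processing notes. The annotation release and strand setting are not given in the sources used here. Overlap with a coding gene is not marked above for every gene. Cx3cr1 overlaps Csrnp1, P2ry12 overlaps Med12l, Golm1 overlaps Naa35, Ctsa overlaps Pltp and Cxcl16 overlaps Zmynd15, among others. How reads in shared stretches were counted is not given. Of 51361 symbols, 97.26% were found in GENCODE M21, the source of coordinates. No column was left out.

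Genes were filtered with filterByExpr (minimum count 10), normalised by TMM, and entered the edgeR 4.0.16 quasi-likelihood F-test (R 4.3.3) in 1 fit of 6 libraries with 3 residual degrees of freedom. P-values were adjusted by Benjamini-Hochberg over 16657 genes, with a threshold of 0.05. Each SE is the absolute log2 difference divided by the square root of its F statistic, not a fitted standard error. CPM use TMM-adjusted totals. A fold against a group at 0 counts is a lower bound over 3 counts in the group, and against 1 to 3 counts it is a ratio of summed CPM with its exact 95% interval. Fit scripts were tested on simulated data. List medians were equal to 2 decimals with bound genes at their bound, unless given. The members and gene lists were chosen with earlier results of these data known, so counts over lists are descriptions.

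Genes were named by a rule. It takes Foxp3, Il2ra, Cd4, Cd3e and Spp1; the 12 called genes per direction that pass most alternatives, with at least 20 CPM in the higher group; up to 5 called genes of each list described, or up to 2 of the most abundant; and the 5 most abundant called genes per direction. A selection is reported, and a few called members of the lists are not reported here. The called members named for a list follow from the list, not from this rule. The 15 alternatives were DESeq2 1.42.0 (its size factors within edgeR, and its Wald test), limma-voom (limma 3.58.1), scaling to T cell receptor complex genes, no filter on low counts or 5 CPM required in 2 libraries, only the 4 tMCAO libraries, replicate numbers as a block, leaving out each library, and both tMCAO libraries numbered 1 left out. For list counts, leaving out a sham library and leaving out both tMCAO libraries numbered 1 were added after seeing the data.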

Additional observations from a re-analysis of the deposited data

How the results depend on the processing

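Against 588 higher and 228 lower genes, no filter on low counts gave 2407 and 1191, a stricter filter 808 and 429, the DESeq2 Wald test 2077 and 1358, limma-voom 997 and 449, and the fit without both tMCAO libraries numbered 1, where the sham pair alone sets the spread, gave 2155 and 1454. Only the 4 tMCAO libraries gave 22 and 4, and scaling to T cell receptor complex genes 603 and 77. With 1 library left out, the counts ranged from 25 to 253 higher and from 6 to 76 lower, lowest without either sham library; each such fit leaves 1 group with a lone library, assumed to vary like the others. DESeq2 size factors within edgeR gave 578 and 230. No call changed direction in these 15 fits, which says little, as brain and blood did not overlap in any called gene. The labels do not say that replicate numbers pair brain and blood libraries. The deviations of library 1 from the mean of its group correlated at 0.304 between brain and blood over all genes tested. Those of library 2 are their mirror and add nothing. With the replicate number as a block, 576 and 227 genes were called, 645 of them shared with the reported 816.

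For the 165 named genes and their 2471 alternative values, 1662 kept direction and side of the threshold, 736 lost the call, 42 gained 1 and 31 turned in sign. The 31 belong to 11 genes that were not called. On the log2 scale, scaling to T cell receptor complex genes turned Cd3e to 0.33, Cd4 to 1.21, Gimap3 to 0.44, Gimap4 to 0.098, Il2ra to 0.68, Nkg7 to 0.089, mt-Co1 to 0.44 and mt-Nd1 to 0.060. Limma-voom turned Cd4 to 0.16 and Mrc1 to -0.17. Without both tMCAO libraries numbered 1, mt-Co1 turned to 0.31, mt-Nd1 to 0.22 and Mrc1 to -2.33 (edgeR adjusted p = 0.00531). That fit leaves Mrc1 with 1 brain library at 24.96 CPM and 1 blood library at 119 CPM. The other 18 came from leaving out 1 tMCAO library. Those fits ranged from -0.12 to 0.42 in B2m, -2.67 to 1.495 in Cd3e, -1.21 to 1.59 in Cd4, -1.97 to 4.22 in Foxp3, -1.95 to 1.08 in Gimap3, -2.23 to 0.66 in Gimap4, -1.59 to 1.47 in Il2ra, -2.98 to 2.41 in Mrc1, -2.71 to 0.58 in Nkg7, -0.25 to 0.21 in mt-Co1 and -1.01 to 0.22 in mt-Nd1. The 2 libraries per group and the spread within the tMCAO pairs limit the precision.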
